A study of Rattus norvegicus with 8 samples.

Results

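Radixin and 5 genes whose products work with it at the apical cell membrane were described here in the liver of Goto-Kakizaki (GK) rats fed an extract of persimmon peel. The genes were radixin (Rdx), ezrin (Ezr), moesin (Msn), the scaffold protein genes Nherf1 (also called Slc9a3r1) and Pdzk1, and Nf2, which encodes merlin. Every probe set that the platform annotation gave to exactly 1 of these 6 genes was taken, which made 14 of the 31042 probe sets other than the manufacturer's controls, for 6 of 14217 named genes. All animals were male GK rats, which become diabetic while lean, and were 18 weeks old. One group of 4 rats had been fed AIN-93G, a purified rodent diet, for 12 weeks, and the other group of 4 the same diet with the extract. Each liver had 1 array, and the 8 arrays hold no animal of a strain without diabetes. The labels do not state the dose or the composition of the extract.

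Ezrin, radixin and moesin, the ERM proteins, tie the cell membrane to the actin cortex: an amino-terminal FERM domain binds membrane proteins, and the carboxy-terminal tail binds actin filaments once the folded protein has been opened by phosphoinositides and phosphorylated. In liver, radixin is the main ERM protein of hepatocytes, where it lies at the bile canaliculus and holds export pumps such as Abcc2 in place. Ezrin is typical of bile duct epithelium, and moesin of endothelial cells and leukocytes. Nherf1 and Pdzk1 are PDZ domain scaffolds, of which Nherf1 also binds the ERM proteins through its tail, and merlin is a FERM domain relative that feeds into the Hippo growth control pathway.

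The stretch of 250 bases before the start of the gene is shown for radixin, the gene on which the results turn, and for ezrin, another ERM gene, given for contrast. Both sequences are RefSeq's on build GRCr8, 5′ to 3′ on the strand of the gene, at chr8:61275542-61275791 (plus strand) for Rdx and chr1:49416574-49416823 (minus strand) for Ezr. Capitals mark matches on either strand to the GC box (GGGCGG), the CCAAT box (CCAAT), the TATA box (TATAAA) and the core of the YY1 motif (CCATNTT).
Rdx: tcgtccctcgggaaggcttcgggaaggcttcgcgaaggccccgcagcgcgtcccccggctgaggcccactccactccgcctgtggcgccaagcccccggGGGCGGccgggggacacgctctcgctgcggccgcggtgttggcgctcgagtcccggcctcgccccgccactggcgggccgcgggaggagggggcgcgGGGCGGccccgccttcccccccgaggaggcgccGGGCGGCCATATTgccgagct
Ezr: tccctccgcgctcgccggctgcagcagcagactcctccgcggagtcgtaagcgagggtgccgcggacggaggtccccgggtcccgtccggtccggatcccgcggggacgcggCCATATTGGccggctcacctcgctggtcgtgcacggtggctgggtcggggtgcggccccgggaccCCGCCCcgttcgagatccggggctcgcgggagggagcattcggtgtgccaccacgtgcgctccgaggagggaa
Rdx held 3 GC boxes and 1 YY1 core, and Ezr held 1 of each and 1 CCAAT box that overlaps the YY1 core. Neither held a TATA box. Over the 33469 stretches of the same length in the RefSeq table, 30.5% held a GC box, 34.0% a CCAAT box, 12.9% a TATA box and 13.8% a YY1 core. G and C made up 79.2% of the Rdx stretch and 74.4% of the Ezr stretch, against a median of 51.2% over all genes. These matches describe letters only.

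Radixin signal was lower on the persimmon peel diet in 2 of its 5 probe sets, by 52.4% in one and 27.8% in the other, while no tested set of the other 5 genes passed the threshold. A probe set was called when its adjusted p in limma's fit over 15521 tested sets was under 0.05. The dimmer part of the array had been left out, and 11 of the 14 sets were bright enough to be tested. Over all tested sets 4.53% were called lower and 0.425% higher, that is 703 and 66 sets. After quantile normalization the numbers were 597 lower and 271 higher. Radixin was among the lower genes with the smallest p in an earlier look at the same data and was chosen by that p; the other genes were chosen with the values of the same comparison known. Its values, and those of the other genes in the same comparison of diets, are therefore a description without a p, and nothing is read from the number of calls against that background.

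The radixin set 1396207_at differed most. Its signal was 165, 162, 158 and 186 units on control arrays 1 to 4, and 74.1, 99.9, 77.1 and 70.6 units on persimmon peel arrays 1 to 4. The diets did not overlap, with 158 as the lowest control and 99.9 as the highest persimmon peel value. All persimmon peel arrays lay below all controls in 10.0% of the tested sets. The means were 168 ± 12.5 and 80.4 ± 13.3 (SD, n = 4 each), a log2 difference of -1.07 (SE 0.13). This set was called lower under all 17 other settings tried, with differences from -1.18 to -0.94.

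The set 1378287_at gave 652, 626, 660 and 721 units on the control arrays and 398, 557, 408 and 583 on the persimmon peel arrays. The groups did not overlap, and persimmon peel arrays 1 and 3 were well below arrays 2 and 4. The log2 difference was -0.47 (SE 0.13). The set was called lower in 6 of the 17 other settings. The call ended without control array 1 (-0.48), 2 (-0.50), 3 (-0.47) or 4 (-0.43), without persimmon peel array 1 (-0.38) or 3 (-0.39), and without both of the latter, where the difference was -0.22. It also ended with quantile normalization, median centring, no filter or no intensity trend, at differences from -0.49 to -0.43.

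The remaining radixin sets did not pass. The brightest, 1388619_at, had 1247, 1308, 1263 and 1421 units on the control diet and 900, 1125, 988 and 1170 on the persimmon peel diet. The groups again did not overlap, with a log2 difference of -0.33 (SE 0.10, 95% interval -0.53 to -0.13). It was called only without persimmon peel array 2 (-0.37), and the difference was -0.19 without persimmon peel arrays 1 and 3. The dimmest set, 1375542_at, ran from 76.8 to 143 units on the control diet and from 56.6 to 81.0 on the persimmon peel diet. Here the groups overlapped through control array 2, without which the set was called (log2 difference -0.80, against -0.63 with it).

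In the fifth radixin set, 1383825_at, the diets overlapped. The control arrays gave 392, 368, 361 and 417 units, and the persimmon peel arrays 264, 355, 489 and 374, so that the persimmon peel group held both the lowest and the highest value. The log2 difference was -0.09 (SE 0.15, 95% interval -0.40 to 0.23), and its sign turned (0.07) without persimmon peel array 1. Of the 23 genes with 5 tested sets, radixin included, 5 had at least 2 sets called lower and 13 had none. Because radixin was chosen by its p in this same comparison, these counts are no measure of how unusual it is.

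**Figure D1:**
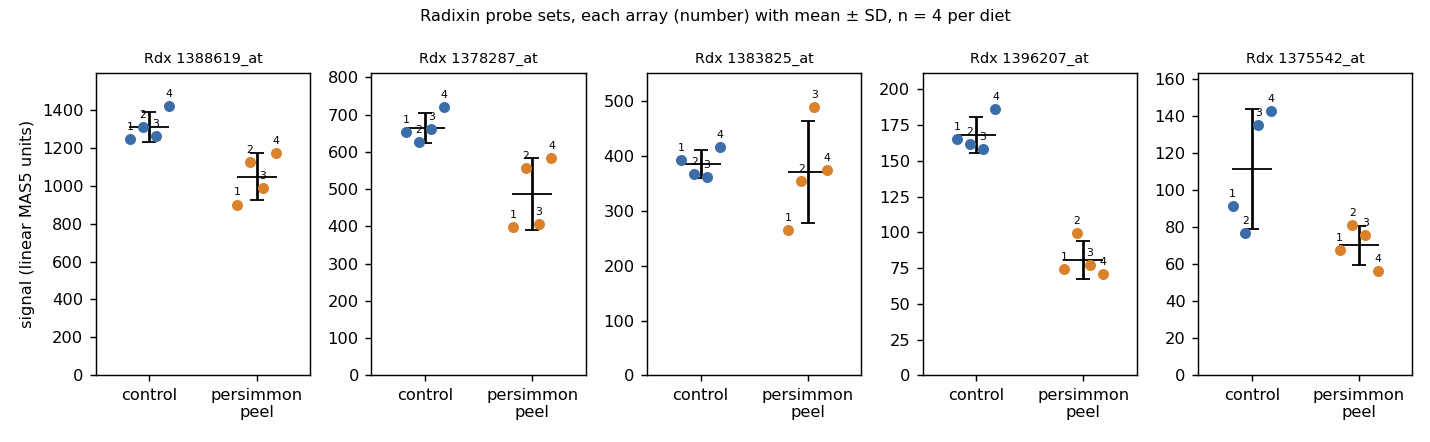
Signal in linear MAS5 units (vertical axis) of the 5 radixin probe sets on each array, with array numbers beside the points and bars for mean ± SD (n = 4 per diet). In 3 of the 5 panels every persimmon peel array lies below every control array, most widely in 1396207_at, where the persimmon peel values reach 99.9 and the controls start at 158.

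Probe sets of radixin therefore gave different sizes of difference from the same RNA. On each array the log2 signal of 1396207_at was set against that of the brightest set, 1388619_at. The result was -2.92, -3.02, -3.00 and -2.93 on the control arrays and -3.60, -3.49, -3.68 and -4.05 on the persimmon peel arrays. Every control value lay above every persimmon peel value, and the group means differed by -0.74. As 1396207_at is the radixin set with the smallest p in this same comparison of diets, a wide gap was favoured in advance. The separation is therefore a description only. The set 1383825_at moved the other way relative to the brightest set, with a difference of means of 0.25 that came mostly from persimmon peel array 3. With the mean of each diet removed, the brightest set and 1378287_at correlated with r = 0.92 over the 8 arrays, while the other 9 pairs of radixin sets had r between 0.08 and 0.52. For the pair at 0.92, 1388619_at and 1378287_at, the log2 SD was 0.17 and 0.29 among persimmon peel arrays. Among control arrays it was 0.085 for each, so this r rests mostly on the persimmon peel arrays. All these correlations describe 8 arrays, and the sets share each array's RNA and scaling. Where each probe set lies along the radixin transcript was not analysed here.

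Of 4 control ratios for RNA quality, those of beta-actin lay apart between the diets and those of GAPDH did not. For beta-actin, the log2 signal of the middle control set minus that of the 3′ control set was -0.76, -0.77, -0.75 and -0.78 on control arrays 1 to 4, and -1.18, -0.92, -1.09 and -1.06 on persimmon peel arrays 1 to 4. The diets did not overlap (two-sided p = 0.0286 by an exact permutation test, which can give no smaller value here; adjusted over 4 control ratios, 0.0571). The 5′ minus 3′ difference of beta-actin averaged -1.68 on the control and -1.97 on the other diet, with the same p. In it the diets were barely apart, with -1.8218 as the lowest control and -1.8233 as the highest persimmon peel value. For GAPDH the means were -0.29 and -0.43 for 5′ minus 3′ (exact permutation p = 0.0857) and -0.58 and -0.59 for middle minus 3′ (exact permutation p = 0.857). Persimmon peel arrays 1 and 3 had the lowest middle ratios of beta-actin and also the lowest signals of 1378287_at and 1388619_at. With diet means removed, the beta-actin middle ratio correlated with these sets at r = 0.69 and 0.64, with 1396207_at at 0.67, with 1383825_at at 0.28 and with 1375542_at at 0.18. The ratio had an SD of 0.015 among control arrays and 0.105 among persimmon peel arrays, so these r values rest mostly on the latter. The part of this ratio in the radixin differences was not tested, and as the ratio lies apart between the diets, ratio and diet cannot be told apart in these arrays.

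Ezrin, the ERM protein of bile duct and other epithelia, had 1 probe set, 1370875_at. It gave 89.4, 92.5, 82.8 and 116 units on the control diet and 85.7, 93.5, 83.5 and 89.5 on the persimmon peel diet. All persimmon peel values lay within the range of the controls. The log2 difference was -0.10 (SE 0.14, 95% interval -0.39 to 0.19), which leaves room for changes of up to 23.9% downwards and 14.1% upwards.

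Moesin, the ERM protein of endothelium and blood cells, had 2 sets that pointed in opposite directions. The tested set, 1371575_at, had 214, 236, 246 and 250 units on the control diet and 255, 234, 321 and 291 on the persimmon peel diet. Of the persimmon peel arrays, 3 lay above every control, and the log2 difference was 0.21 (SE 0.12, 95% interval -0.04 to 0.46), which did not pass. The other set, 1368948_at, ran from 33.7 to 43.4 units on the control diet and from 18.2 to 35.7 on the persimmon peel diet. Its mean was too low for the test, and the log2 difference of -0.68 is a value from the fit with no filter.

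Because whole liver was measured, fewer cells of a type and less RNA per cell cannot be told apart. Hepatocyte markers were present at high signal, with Serpina1 at 11999 ± 204 units in control rats and 11347 ± 496 in rats given the extract (SD, n = 4 each). The summed signal of the 10 hepatocyte markers ran from 89899 to 96251 units in control rats and from 83137 to 89268 in rats given the extract, without overlap. Among single tested sets, 10.0% had all persimmon peel arrays below all controls. Of the 15 tested sets of the hepatocyte markers 1 was called lower, beside 4.53% of all tested sets. At an unadjusted p under 0.05 in limma's fit 5 were lower and 1 higher, beside 13.4% and 6.19% of all tested sets. Of the 15 log2 differences 14 were negative, with a median of -0.13, beside 51.4% negative over all tested sets. For 8 of 10 endothelial markers on the array, led by Lyve1 and Kdr, the sum was 5050 to 5341 units against 4221 to 5323. Of their 8 tested sets 1 was called lower, with 2 lower and 0 higher at an unadjusted p under 0.05. For 9 of 10 macrophage and leukocyte markers, led by Clec4f and Cd5l, the sum was 3745 to 5059 against 4070 to 6528. For 7 of 8 bile duct markers, led by Cdh1 and Epcam, it was 1656 to 2001 against 1841 to 2100. The bright Cdh1 set alone averaged 1552 and 1653 units, so this sum mostly follows Cdh1 and says little about bile ducts. Only 2 of the 7 genes were tested. The defining genes Krt19 and Krt7, and Spp1, Cldn4 and Cldn7, were below the tested range. For all 8 stellate cell markers, led by Col3a1 and Reln, the sum was 988 to 1361 against 907 to 1193. The last 3 lists held no called set, nor one at an unadjusted p under 0.05 in limma's fit. No marker set was at 0 on any array, and the part of cell composition in the values of radixin, ezrin and moesin was not tested.

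The scaffold gene Nherf1, whose product links ERM proteins to membrane transporters, had 2 tested sets. The bright set, 1387793_at, gave 1532, 1376, 1430 and 1285 units on the control diet and 1081, 1057, 1665 and 1500 on the persimmon peel diet. Persimmon peel arrays 1 and 2 lay below all controls, array 3 lay above them all, and the log2 difference was -0.11 (SE 0.13, 95% interval -0.39 to 0.17). The dim set, 1370032_at, ran from 59.9 to 108 units and from 41.6 to 80.2 units, with a log2 difference of -0.35 (SE 0.23). Neither set passed.

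Pdzk1, the scaffold that keeps the HDL receptor Scarb1 on hepatocytes, was nearly the same on both diets. Its set 1368178_at had 471, 476, 459 and 566 units on the control diet and 453, 468, 539 and 508 on the persimmon peel diet, and the groups overlapped throughout. The log2 difference was -0.0013 (SE 0.10), with a 95% interval from 14.0% lower to 16.1% higher.

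The merlin gene Nf2 was the member with the largest positive difference among the tested sets. Its set 1372502_at gave 189, 185, 184 and 173 units on control arrays 1 to 4 and 236, 194, 251 and 195 on persimmon peel arrays 1 to 4. Every persimmon peel array lay above every control, a separation that 2.87% of all tested sets showed in that direction and 10.0% in the other. The log2 difference of 0.25 (SE 0.12, 95% interval 0.0041 to 0.50) did not pass after adjustment. It was 0.09 without persimmon peel arrays 1 and 3. The other Nf2 sets, 1371191_at and 1371192_at, had 1.46 to 17.7 and 1.08 to 18.8 units, which is near the 14.5 units that the 27 bacterial control sets reached at most, and were not tested.

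**Figure D2:**
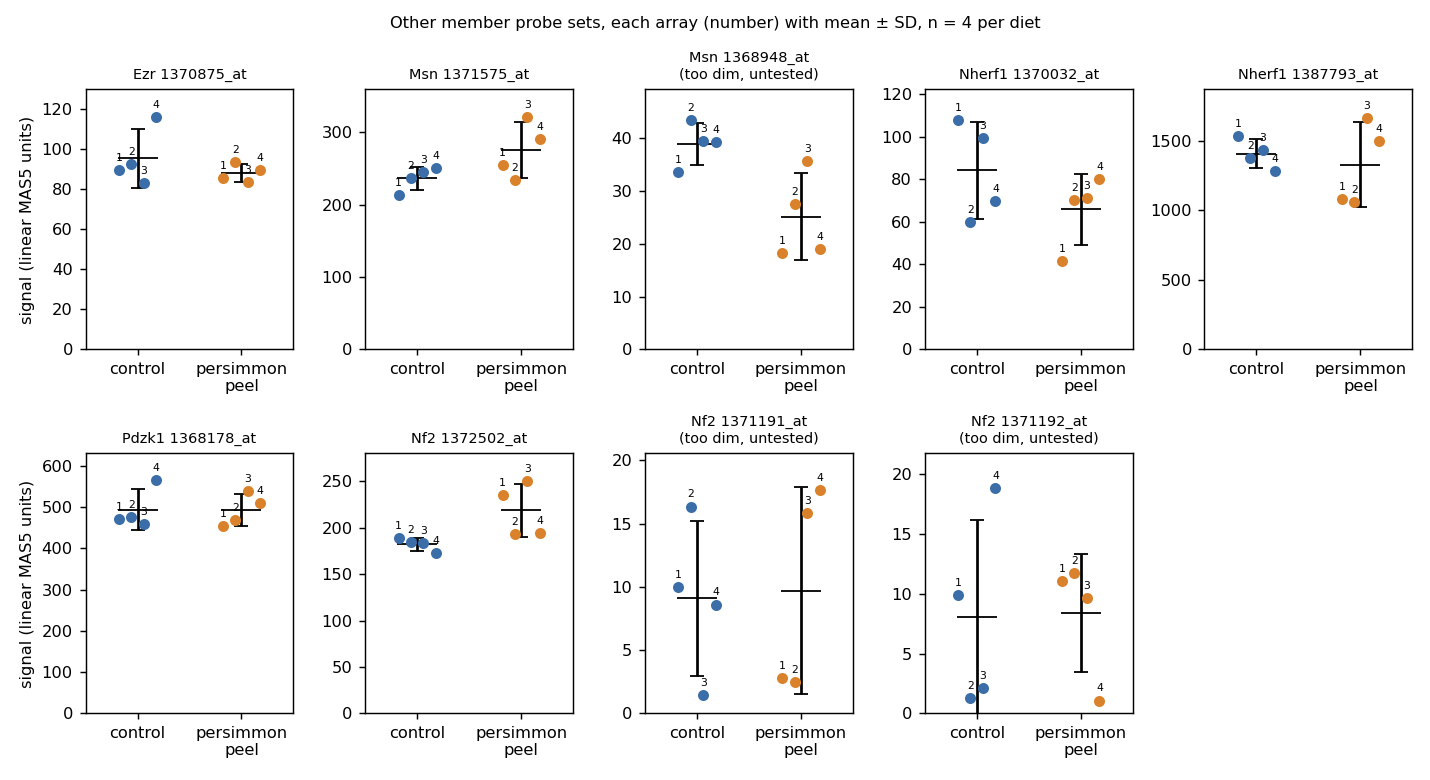
Signal in linear MAS5 units (vertical axis) of the 9 probe sets of ezrin, moesin, Nherf1, Pdzk1 and Nf2 on each array, with array numbers beside the points and bars for mean ± SD (n = 4 per diet). Only in Nf2 1372502_at do the diets lie apart, with persimmon peel arrays 1 and 3 highest at 236 and 251 units.

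Across arrays, Nf2 ran against some radixin sets and not others. With diet means removed, Nf2 1372502_at correlated with the radixin sets 1378287_at at r = -0.96 and 1388619_at at r = -0.86 over the 8 arrays, with 1396207_at at r = -0.44, with 1375542_at at r = -0.06 and with 1383825_at at r = 0.11. Persimmon peel arrays 1 and 3, the lowest in 1378287_at, in 1388619_at and in the beta-actin ratio, were the highest in Nf2. Array 4 was lowest in 1396207_at and 1375542_at, and array 3 was highest in 1383825_at. Ezrin correlated with 1388619_at at 0.61 and with 1396207_at at 0.58. The bright Nherf1 set and Pdzk1 correlated with 1383825_at, the radixin set whose groups overlapped most, at 0.72 and 0.74. Nf2 1372502_at had a log2 SD of 0.06 among control arrays and 0.19 among persimmon peel arrays. For 1378287_at these were 0.09 and 0.29, so the r of this pair rests mostly on the persimmon peel arrays. All correlations given here are descriptions of 8 arrays that share RNA and scaling.

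**Figure D3:**
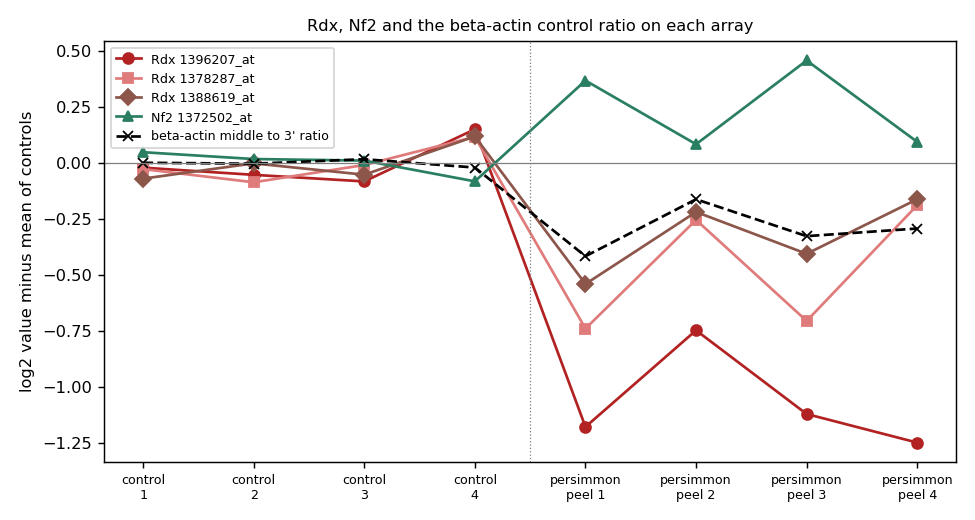
Log2 value minus the mean of the 4 control arrays (vertical axis) for 3 radixin sets, Nf2 1372502_at and the beta-actin middle to 3′ ratio on each of the 8 arrays (horizontal axis); lines only join the points of one measure. Persimmon peel arrays 1 and 3 are low in radixin 1378287_at (398 and 408 units) and in the ratio (-1.18 and -1.09) and high in Nf2 (236 and 251 units). The values in brackets are not on the axis. They are signal in units, and for the ratio the log2 value, before the control mean was subtracted.

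Over the 11 tested sets of the 6 genes, 9 log2 differences were negative, with a median of -0.11, beside 51.4% negative and a median of -0.0071 over all tested sets. Radixin contributed 5 of the 9. At an unadjusted p under 0.05 there were 4 lower sets, all of radixin, and 1 higher set, that of Nf2, where 13.4% and 6.19% of all tested sets passed.

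**Figure D4:**
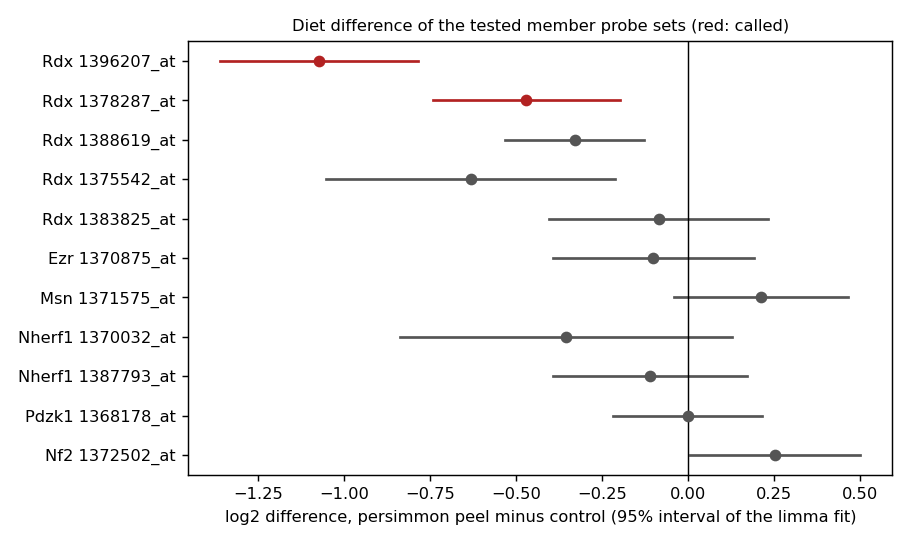
Log2 difference, persimmon peel minus control (horizontal axis), of the 11 tested probe sets, with the 95% interval of the limma fit. The radixin sets 1396207_at (-1.07) and 1378287_at (-0.47) are in red as called, and the intervals of Ezr, Msn, Nherf1 and Pdzk1 span 0.

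The genes most like radixin 1396207_at across the arrays, by Pearson's r after removal of diet means over 12150 tested sets of other named genes, were Cops3 (r = 0.98), Ubqln1 (0.97), Snrk (0.97), Rad1 (0.96) and Clic4 (0.96). Each gene stands here by its closest set alone, and other sets of these genes are not given. The log2 differences of these sets between the diets were -0.65, -0.42, -0.54, -0.28 and -0.74 in this order. Those of Cops3, Ubqln1 and Clic4 were called lower, beside 4.53% of all tested sets. As the highest of so many correlations over 8 arrays, these r values are picked extremes and only describe likeness. The 5 genes encode a COP9 signalosome subunit, ubiquilin 1, a kinase related to AMPK, a DNA damage checkpoint protein and an intracellular chloride channel protein.

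Genes that work with these proteins were taken from 8 lists of the pathway. Of their 190 tested sets from 133 genes, 13 (6.84%) were called lower and 2 (1.05%) higher, and the median log2 difference was -0.02. The shares for all tested sets, 4.53% and 0.425%, stand beside these. The lower calls numbered 7 without control array 1, without control array 4 or without persimmon peel array 1, 8 without persimmon peel array 3, and 4 without persimmon peel arrays 1 and 3. The higher calls numbered 4 without persimmon peel array 2, 1 without control array 2, control array 4 or persimmon peel array 4, and 0 without control array 1, persimmon peel array 1 or persimmon peel array 3. With every gene reduced to its brightest set, 1 lower and 0 higher calls were left, where 0.709% and 0.0327% of all 9174 genes were called. In the main fit 5 of the 15 called sets were the brightest of their gene, so this setting also lost calls of brightest sets.

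Of the membrane proteins that bind ERM proteins, 1 of 12 tested sets was lower and 0 were higher, with 2 in each direction at an unadjusted p under 0.05. Sdc2, a heparan sulfate proteoglycan of hepatocytes, was lower in 1 of 3 sets, from 4135 ± 310 to 3376 ± 197 units (SD, n = 4 each; log2 difference -0.29, SE 0.07, limma adjusted p = 0.0325), with -0.21 and -0.07 in the others. The hyaluronan receptor Cd44, with group means of 14.8 to 32.4 units in its 2 sets, was too dim to test.

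The main canalicular export pumps did not pass. Abcc2, the conjugate export pump, had 1786 ± 242 and 1797 ± 184 units (SD, n = 4 each; log2 difference 0.01, 95% interval -0.21 to 0.23). Abcb11, the bile salt export pump, had 1894 ± 134 and 2102 ± 293 units (0.14, 95% interval -0.06 to 0.35). In the whole list of canalicular proteins 1 of 18 tested sets was lower and 0 were higher, with 1 in each direction at an unadjusted p under 0.05. The lower set belonged to Ceacam1, an adhesion protein of the canalicular membrane, at 147 ± 26.1 and 71.8 ± 10.9 units (SD, n = 4 each; log2 difference -1.03, SE 0.16, limma adjusted p = 0.00355). The brighter sets of Ceacam1 had -0.20 (adjusted p = 0.319) and -0.0035 (adjusted p = 0.988).

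Proteins bound by the PDZ domains of Nherf1 and Pdzk1 had 3 of 16 tested sets lower and 0 higher, with 4 and 1 at an unadjusted p under 0.05. Slco1a1, an organic anion uptake carrier, went from 1308 ± 159 to 929 ± 76.4 units (SD, n = 4 each; log2 difference -0.49, SE 0.10, limma adjusted p = 0.0114) in its only set. Slco2b1, a related carrier, was lower in the dimmer set (-0.67, SE 0.11, limma adjusted p = 0.0046) and had -0.06 in the brighter. Ctnnb1, which encodes beta-catenin, was lower in the dimmest of 3 tested sets (-0.57, limma adjusted p = 0.0338), with -0.27 and -0.09 in the others. Scarb1, the HDL receptor, had -0.17 and -0.02 and did not pass.

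Among other PDZ and polarity scaffolds 2 of 32 tested sets were lower and 1 was higher, with 4 in each direction at an unadjusted p under 0.05. Dlg1, a scaffold of the lateral membrane, had a lower set (116 ± 24.8 to 49.1 ± 8.37 units, SD, n = 4 each; log2 difference -1.23, SE 0.17, limma adjusted p = 0.00224) beside a brighter one at -0.01. Gopc, a Golgi PDZ protein, was lower in the brighter of its 2 sets (-0.42, limma adjusted p = 0.0478). Its dimmer set had -0.33 (limma adjusted p = 0.181). The polarity kinase Mark2 was higher, from 233 ± 11.3 to 318 ± 46.9 units (SD, n = 4 each; log2 difference 0.44, SE 0.11, limma adjusted p = 0.0392). Nherf2, the closest relative of Nherf1, had 0.38 (SE 0.14, adjusted p = 0.137) and 0.17 in its sets, and the tight junction scaffold Tjp1 had -0.11 (adjusted p = 0.54).

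Of the proteins of microvilli and the canalicular cortex, 2 of 24 tested sets were lower and 0 higher, with 5 and 0 at an unadjusted p under 0.05. Pls3, an actin bundling plastin, was lower in one set (251 ± 30.4 to 136 ± 18.3 units, SD, n = 4 each; log2 difference -0.89, SE 0.13, limma adjusted p = 0.00241) and had -0.14 in a brighter set. Sptbn1, a spectrin of the membrane skeleton, was lower in its brightest set (1122 ± 70.4 to 869 ± 19.1 units, SD, n = 4 each; log2 difference -0.37, SE 0.08, limma adjusted p = 0.0177), with -0.32 and 0.05 in its other tested sets. Villin (Vil1) was too dim to test.

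In the Hippo pathway downstream of merlin, 1 of 25 tested sets was lower and 0 were higher, with 4 and 2 at an unadjusted p under 0.05. The lower set was that of the upstream kinase Taok1 (129 ± 9.19 to 90.6 ± 8.61 units, SD, n = 4 each; log2 difference -0.51, SE 0.12, limma adjusted p = 0.0288). The kinase Lats1 had -0.05 (adjusted p = 0.847). Of 40 tested sets of other FERM domain proteins, 1 was lower and 1 higher, with 3 and 5 at an unadjusted p under 0.05. The cytokine receptor kinase Jak1 was lower in its dimmer set (-0.81, SE 0.13, limma adjusted p = 0.00372) with -0.12 in the brighter, and the endosomal sorting protein Snx27 was higher in the dimmest of 4 sets (0.76, SE 0.18, limma adjusted p = 0.0255), with 0.02 to 0.14 in the others.

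Of the 15 called sets of these lists, 12 belonged to genes with another tested set, and 5 were the brightest set of their gene. The calls of Ceacam1, Slco2b1, Slco1a1, Dlg1, Pls3 and Jak1 stood with each array left out in turn, and those of Ceacam1, Dlg1, Pls3 and Jak1 also stood without persimmon peel arrays 1 and 3. The calls of Sdc2, Mark2 and Gopc stood in 1 of the 8 fits with an array left out, those of Ctnnb1 and Taok1 in 2, that of Snx27 in 4 and that of Sptbn1 in 5. Those of Ctnnb1 and Gopc did not pass after quantile normalization.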

How the data were processed

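Total RNA of 8 livers was hybridised to 1-colour Affymetrix arrays. The deposited values are linear intensity values made with MAS5, per the submitters' processing notes; its version, scaling target and detection calls were not given in the sources used here. Array medians were 33.2 to 39.2 units, 0 further sample columns were present, and precision is set by the number of arrays. Values were taken to log2 with no pseudocount. The dimmest 50% of sets by mean log2 signal were left out, which left sets with a mean of at least 34.4 units. Diets were compared with limma 3.58.1 in R 4.3.3 (lmFit, eBayes with an intensity trend), two-sided, with Benjamini-Hochberg adjustment over all tested sets.

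Symbols came from the platform annotation, updated through RefSeq's GRCr8 table (20758 of 20826 sets with 1 symbol matched by gene number; 436 sets had several symbols and 9780 none). On data simulated for this comparison with 15521 sets, 3, 19, 41 and 48 of 50 sets changed by 1.25, 1.5, 2 and 3 times were recovered, and 6 unchanged sets were called. The members, lists and alternatives were chosen with earlier results of these data known. Named genes are all sets of the members, the 5 genes most like radixin, up to 6 called genes of each list, 12 further genes of the lists, of which Yap1 is not analysed here, and the leading 2 markers of each cell type. The genes of 1 of the 8 lists, of upstream regulators, are counted in the totals but not reported here. Array pairs correlated at r = 0.967 to 0.986. The labels number 4 livers per diet, which the design text says came from 4 rats.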

Additional observations from a re-analysis of the deposited data

Results flagged for a closer look

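One member value stood apart from its group. The Pdzk1 set 1368178_at had 566 units on control array 4, against 459 to 476 units on the other control arrays, a gap that exceeded Dixon's 95% limit for 4 samples. It was 1 of 36 groups looked at, where chance alone gives about 1 in 20.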

How the results depend on the processing

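Of 187 log2 differences of member sets under 17 alternatives, 3 moved by more than the spread between arrays, all without persimmon peel arrays 1 and 3 (radixin -0.22 and -0.19, Nf2 0.09), and no called value turned its sign. Called lower among the members was 1 set under median centring, no filter, no intensity trend, quantile normalization or without persimmon peel arrays 1 and 3, 4 sets at an unadjusted p under 0.05 (with 1 higher) and 0 with only the brightest set of each gene. Over the array, lower and higher calls numbered 441 and 26 with no filter, and 75 and 1 without persimmon peel arrays 1 and 3. Higher calls numbered 33 with no intensity trend, 271 after quantile normalization and 41 in the upper 30% by signal. For the pathway lists, lower and higher calls were 8 and 0 with no filter, 8 and 1 with no intensity trend, 4 and 0 without persimmon peel arrays 1 and 3, 29 and 17 at an unadjusted p under 0.05, and 1 and 0 with only the brightest sets; the higher calls were 1 in the upper 30% by signal. The cause of these moves was not tested. With 1 array left out in turn, lower calls ranged from 295 to 942 and higher from 12 to 267 over the array, from 1 to 3 lower with 0 higher among members, and from 7 to 16 lower and 0 to 4 higher in the lists, while the beta-actin ratio difference ranged from -0.34 to -0.26. The replicate block gave 596 lower and 60 higher calls over the array, 2 lower among members and 11 lower and 3 higher in the lists. Deviations of arrays with the same number correlated between -0.08 and 0.05, so no strong deviation shared by number was seen. These values cannot settle whether livers were paired in handling. With 4 arrays per diet, 19 of 50 sets changed 1.5 times were recovered in the simulation, so changes of that size can be missed. The simulated noise was independent between sets and had the same spread on both diets, so the share recovered need not hold for the real arrays.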
